A study of Homo sapiens with 30 samples.

Results

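hNABP2 (hSSB1, gene NABP2) is a single-stranded DNA binding protein, and the regions described here are its ChIP-seq peaks that lie 1 to 3 kb from an annotated transcription start in HT1080 cells. They were taken from the authors' annotation of anti-hNABP2 ChIP repeat 1, as all peaks that table places in its 1 to 2 kb or 2 to 3 kb promoter class, whatever their strength. There were 272 such peaks at 256 genes, out of 10055 annotated and 10068 listed peaks of that library. The 1 to 2 kb class held 192 of them and the 2 to 3 kb class 80. By the sign of the distance 129 lay upstream of their start and 143 downstream. For comparison, 8981 peaks lay within 1 kb of a start, 337 in introns and 368 in distal intergenic sequence.

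HT1080 is an established human fibrosarcoma line, used at passages 10 to 15. The ChIP libraries were 2 repeats from WT cells with a homemade anti-hNABP2 antibody, beside IgG libraries that are not analysed here. In the global run-on assay polymerases already on the DNA are allowed to elongate in isolated nuclei, and the RNA made, tagged with a bromouridine analogue, is recovered with a BrdU antibody. Such libraries came from WT cells and from cells labelled hNABP2 KO and hNABP1 KO, 3 repeats each with nucleotides (NTP) and 3 without. DRIP recovers RNA:DNA hybrids with the S9.6 antibody, and its libraries came from WT and hNABP2 KO cells, 2 repeats each without RNase H. The sources used here do not give the kind of knockout, the number of clones or whether repeats came from separate cultures, so p-values may measure technical spread only.

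As background, hNABP2 and its paralogue hNABP1 (hSSB2, gene NABP1) bind single-stranded DNA through an OB fold and form the SOSS complex with INTS3 and INIP, which acts in DNA double-strand break repair and contacts the Integrator complex at transcribed genes. Single-stranded DNA is exposed in transcription bubbles, in R-loops and at resected breaks. A gene can have several starts, and regulatory sequence upstream of a start or in the first intron can lie at the distances considered here.

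Some of these peaks lie on a start that the authors' annotation does not give them, and the sequences of 6 such places are shown because the peaks concerned are the strongest of all (GSG1) or were found again in ChIP repeat 2 (the other 5). Of the 265 peaks on chromosomes covered by the RefSeq promoter windows, which run from 250 bases before to 50 bases after a start in GRCh38.p14, 13 (4.91%) overlapped a window, against 69.4% of the peaks within 1 kb. In the sequences below, taken from RefSeq and written 5′ to 3′ on the strand of the gene, the capitals mark the bases inside the hNABP2 peak. The GSG1 peak covers all of the window of LOC105369666, chr12:13101180-13101479 on the plus strand. The BICRAL peak covers all of the window of LOC401261, chr6:42783246-42783545 on the plus strand. The remaining windows are that of RAD54L2, a member of the RAD54 helicase family (chr3:51538469-51538768, plus strand), GLIS1, a zinc finger transcription factor gene (chr1:53739115-53739414, minus strand), GJD3-AS1, opposite the connexin gene GJD3 (chr17:40362595-40362894, plus strand), and LOC101927712 beside AL390755.3 (chr13:110138565-110138864, minus strand).
GSG1 peak, LOC105369666 start: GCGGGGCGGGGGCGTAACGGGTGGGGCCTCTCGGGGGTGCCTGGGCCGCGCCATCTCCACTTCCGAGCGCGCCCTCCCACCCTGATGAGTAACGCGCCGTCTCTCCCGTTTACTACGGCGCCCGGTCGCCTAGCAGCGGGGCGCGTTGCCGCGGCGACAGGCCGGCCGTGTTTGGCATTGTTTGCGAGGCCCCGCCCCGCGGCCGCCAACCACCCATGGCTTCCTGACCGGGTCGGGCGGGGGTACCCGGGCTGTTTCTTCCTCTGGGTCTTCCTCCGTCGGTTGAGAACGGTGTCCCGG
BICRAL peak, LOC401261 start: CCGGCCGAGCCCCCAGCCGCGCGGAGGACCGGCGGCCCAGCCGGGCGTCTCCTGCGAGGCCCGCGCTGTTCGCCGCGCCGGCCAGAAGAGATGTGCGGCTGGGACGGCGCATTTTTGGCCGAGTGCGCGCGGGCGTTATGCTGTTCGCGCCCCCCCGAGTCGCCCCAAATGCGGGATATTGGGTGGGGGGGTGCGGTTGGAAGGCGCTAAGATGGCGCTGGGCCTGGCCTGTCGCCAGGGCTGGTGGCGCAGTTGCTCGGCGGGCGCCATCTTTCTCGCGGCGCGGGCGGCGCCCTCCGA
RAD54L2 peak, RAD54L2 start: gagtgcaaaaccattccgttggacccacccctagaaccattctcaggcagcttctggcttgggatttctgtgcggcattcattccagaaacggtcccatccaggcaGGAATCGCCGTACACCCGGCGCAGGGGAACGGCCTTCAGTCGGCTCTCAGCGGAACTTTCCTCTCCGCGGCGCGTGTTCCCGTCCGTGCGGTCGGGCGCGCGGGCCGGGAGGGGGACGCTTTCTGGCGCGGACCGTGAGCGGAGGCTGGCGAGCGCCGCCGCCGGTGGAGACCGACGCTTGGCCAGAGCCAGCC
GLIS1 peak, GLIS1 start: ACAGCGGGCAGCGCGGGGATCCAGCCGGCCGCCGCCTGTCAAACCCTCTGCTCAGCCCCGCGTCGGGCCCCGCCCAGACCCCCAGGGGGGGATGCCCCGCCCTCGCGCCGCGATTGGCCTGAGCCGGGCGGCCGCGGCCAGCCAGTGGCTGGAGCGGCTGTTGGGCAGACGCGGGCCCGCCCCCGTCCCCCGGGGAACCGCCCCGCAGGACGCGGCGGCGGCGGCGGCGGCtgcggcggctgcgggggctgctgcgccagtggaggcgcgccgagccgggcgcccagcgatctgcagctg
GJD3 peak, GJD3-AS1 start: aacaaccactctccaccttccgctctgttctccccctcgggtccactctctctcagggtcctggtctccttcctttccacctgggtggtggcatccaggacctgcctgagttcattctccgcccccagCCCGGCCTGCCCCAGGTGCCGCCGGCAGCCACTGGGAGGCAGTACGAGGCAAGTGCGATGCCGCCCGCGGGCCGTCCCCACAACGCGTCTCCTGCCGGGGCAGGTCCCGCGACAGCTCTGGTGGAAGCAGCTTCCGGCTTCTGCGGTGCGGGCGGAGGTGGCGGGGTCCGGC
AL390755.3 peak, LOC101927712 start: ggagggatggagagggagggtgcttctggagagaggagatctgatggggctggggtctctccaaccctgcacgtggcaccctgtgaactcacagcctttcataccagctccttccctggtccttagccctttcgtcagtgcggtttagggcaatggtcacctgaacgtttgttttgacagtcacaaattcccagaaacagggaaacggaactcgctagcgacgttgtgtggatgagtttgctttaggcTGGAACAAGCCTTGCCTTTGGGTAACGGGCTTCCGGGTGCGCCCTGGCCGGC

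The peak covered 300, 300, 194, 231, 172 and 52 of the 300 bases in the order shown, and the covered bases were 72.0%, 74.3%, 74.2%, 81.8%, 75.6% and 67.3% G or C. Over all 35116 windows the median was 58.7%, and over the windows of genes with a peak within 1 kb it was 67.3%. The letters GGGCGG of the GC box, the site known for Sp1-type factors, were searched on both strands. They occurred in 10 of the 13 windows that such a peak overlapped (76.9%). The share was 70.1% in the windows of genes with a peak within 1 kb and 45.0% in all windows. In the GSG1 sequence they occur 3 times and in the GLIS1 sequence 5 times, all inside the peak, while the RAD54L2 and AL390755.3 sequences hold none.

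Measured from the summit to RefSeq starts, a distance of 1 to 3 kb holds for only some of these peaks. The summit lay within 1000 bp of a RefSeq start for 19 of 265, at 1000 to 3000 bp for 95, and beyond 3000 bp for 151, with a median distance of 4130 bp. Peaks annotated within 1 kb of a start had a median of 131 bp. The starts used by the authors are those of single transcripts, so many of the distances below refer to a transcript that the RefSeq windows do not hold. The point measured from differs too, since the authors' distances appear to run from the nearest edge of a peak. JUNB lay 1169 bp upstream by the authors' distance and 1452 bp by the summit, and FOS 1279 and 1649 bp.

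**Figure D1:**
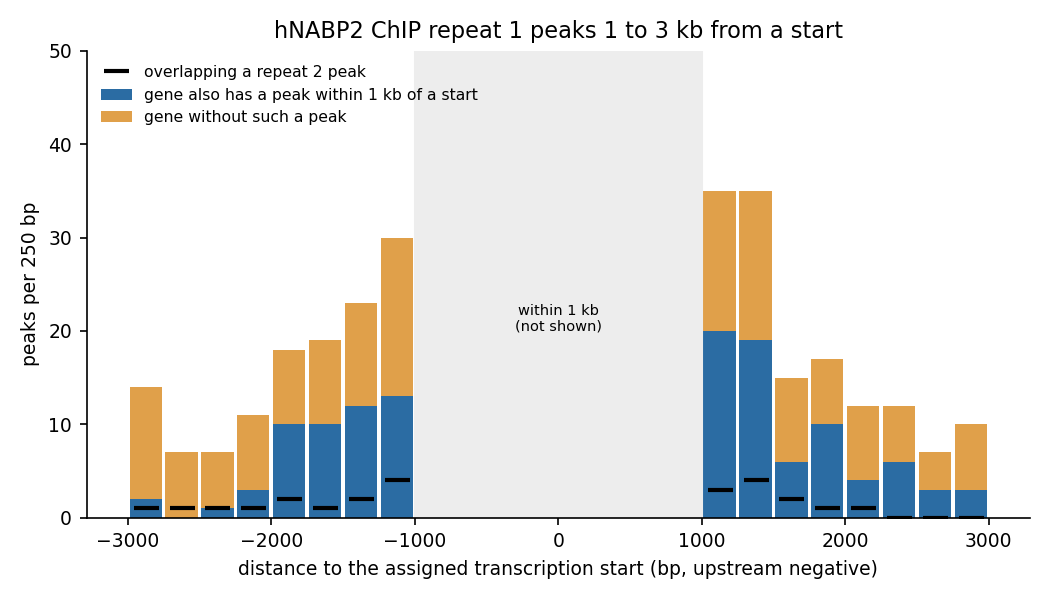
Number of hNABP2 ChIP repeat 1 peaks per 250 bp (y axis) by signed distance to the assigned transcription start in bp (x axis), divided by whether the same gene also has a peak within 1 kb of a start; black dashes give the number overlapping a repeat 2 peak. Counts are highest next to 1000 bp on both sides, with 35 peaks in the first bin downstream against 10 in the last, and 30 against 14 upstream.

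The peaks were about as enriched as those at starts, but narrower and less significant. Fold, the summit over local background as MACS2 gives it in the authors' tables, had a median of 3.29 (quartiles 2.70 and 4.25) against 3.16 (2.65 and 3.91) within 1 kb of a start. The median -log10 q was 8.71 against 12.8 and the median width 250 bp against 380 bp. If distances run from the edge of a peak, a wider peak is more readily placed within 1 kb. Part of the width difference can thus follow from the classes themselves. Upstream and downstream peaks were alike in these descriptions, with median folds of 3.30 and 3.27 and median -log10 q of 8.70 and 8.71. Of the 272, 15 shared one and the same fold of 4.28 and -log10 q of 2.40, and 5 more shared a fold of 5.70 and a -log10 q of 4.77. The nearest to the inner limit were AC005224.3, 1009 bp upstream (fold 2.59), and BICRAL, 1013 bp downstream (fold 3.43), and just inside that limit, thus not among these peaks, lay MAMDC4 at 985 bp (fold 2.48) and ZFP36L1 at 992 bp (fold 2.52). At the outer limit AL034346.1 (2976 bp, fold 2.42) and NANOS3 (2985 bp, fold 3.09) were in, and RPS28 (3001 bp, fold 3.44) and ZBTB7B (3002 bp, fold 3.17) out.

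The strongest peak by both fold and -log10 q was GSG1, a germ cell gene, at chr12:13101115-13101575, 2067 bp downstream of its assigned start and on the LOC105369666 start printed above, with a fold of 13.4 and a -log10 q of 116. By -log10 q, the measure that orders the peaks here, SPATA2L came next, 1200 bp downstream (chr16:89700184-89700440, fold 8.005, -log10 q 74.2). MAPK8IP1, a scaffold of JNK signalling, had a peak 1672 bp upstream (chr11:45899514-45900261, fold 6.06, -log10 q 69.4). KCNN1, a calcium-activated potassium channel gene, had one 2895 bp upstream (chr19:17947847-17948398, fold 7.92, -log10 q 68.5). None of these 4 genes had a peak within 1 kb of a start, and none of the 4 peaks overlapped a repeat 2 peak. Strong peaks of the same kind lay at ELAVL3, a neuronal RNA-binding protein gene (1202 bp upstream, fold 4.57), AC004257.1 (1191 bp upstream, fold 6.38), AL590666.2 (1127 bp downstream, fold 4.25) and the purinergic receptor gene P2RY11 (1639 bp downstream, fold 5.15). They too were missing from the repeat 2 list. RNA5-8SN3 (downstream, -log10 q 61.3) and RAD54L2 (upstream, -log10 q 33.5) also had no near peak and were among the 5 highest by -log10 q on their side. Both did overlap a repeat 2 peak.

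Found again in repeat 2 were 24 of the 272 peaks (8.82%, exact 95% interval 5.74 to 12.8), counting overlaps of 1 bp or more. Of all annotated repeat 1 peaks 22.6% overlapped repeat 2, and of those within 1 kb of a start 24.5% (2196 of 8981). The share was therefore 15.6 percentage points lower than within 1 kb (difference -15.6, Newcombe 95% interval -18.6 to -11.6). It was above that of intronic peaks (3.86%, 13 of 337; difference 4.97 points, 1.11 to 9.24) and not distinguishable from that of distal intergenic peaks (9.78%, 36 of 368; difference -0.96, -5.43 to 3.80). These intervals cover counting error over peaks only, since 2 ChIP libraries allow no test over samples. Repeat 2 listed 2832 peaks, and the sequencing depth of either library is unknown.

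The 24 peaks did not have larger folds in repeat 1 than the others (median 3.24 against 3.31) but were wider (434 against 238 bp) and had higher -log10 q (12.0 against 8.07). Upstream, IRF2BP2, a transcriptional corepressor gene, led with a fold of 6.58 in repeat 1 and 7.06 in repeat 2 (chr1:234610733-234611323, 1208 bp). RAD54L2 had 3.80 in repeat 1 and 10.5 in repeat 2. The clone-named transcripts AC116552.1 (4.51 and 4.17), AC068987.2 (3.63 and 3.69) and AL390755.3 (3.26 and 8.04) complete the 5 upstream peaks with the highest repeat 1 fold. Folds were not scaled between the 2 lists, and the median over all repeat 2 peaks was 5.87, so the 2 values of a peak are not compared. Downstream, ADAM8, a membrane metalloprotease gene, had folds of 5.32 and 6.98 (chr10:133261440-133262205, 1660 bp). AC007952.4 had 5.32 and 7.85, BICRAL, a chromatin remodelling subunit gene, 3.43 and 9.62, and AC005486.1 3.38 and 4.97. The ribosomal RNA copy RNA5-8SN3 on chromosome 21 had 5.44 and 18.5, the highest repeat 2 fold of the 24. Ribosomal DNA is repeated, and reads of its copies cannot be told apart. Of the 24 peaks, 13 were assigned to protein-coding genes and 9 to transcripts without a RefSeq symbol. The annotation of repeat 2 placed 13 of them at 1 to 2 kb, 6 at 2 to 3 kb, 4 within 1 kb and 1 in an exon.

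Seen from repeat 2, 48 of its 2816 annotated peaks (1.70%, against 2.71% in repeat 1) lay 1 to 3 kb from a start, 20 of them upstream. Of these 48, 24 (50.0%, 35.2 to 64.8) overlapped a repeat 1 peak, and 19 overlapped one of the 272. Over all annotated repeat 2 peaks the share was 80.4%. The lower rate of recurrence at 1 to 3 kb was thus present in both directions.

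The gap was present at every strength examined within repeat 1. In each of 4 ranges of fold and each of 4 ranges of -log10 q, the share found again in repeat 2 was lower at 1 to 3 kb than within 1 kb, and each interval of the difference excluded 0. At a -log10 q of 20 or more it was 15.2% (7 of 46) against 30.2% (798 of 2645), a difference of -15.0 points (-22.8 to -1.83). At a -log10 q under 5 it was 2.63% (2 of 76) against 18.0%. Within ranges of width the difference was smaller. For peaks under 200 bp it was -5.62 points (-8.74 to 1.08), for 300 to 400 bp -7.50 (-13.7 to 4.37) and for 400 bp or more -12.5 (-22.0 to 0.11), so that 3 of the 4 width ranges had an interval that included 0. For 200 to 300 bp it was -9.49 (-11.8 to -3.46).

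**Figure D2:**
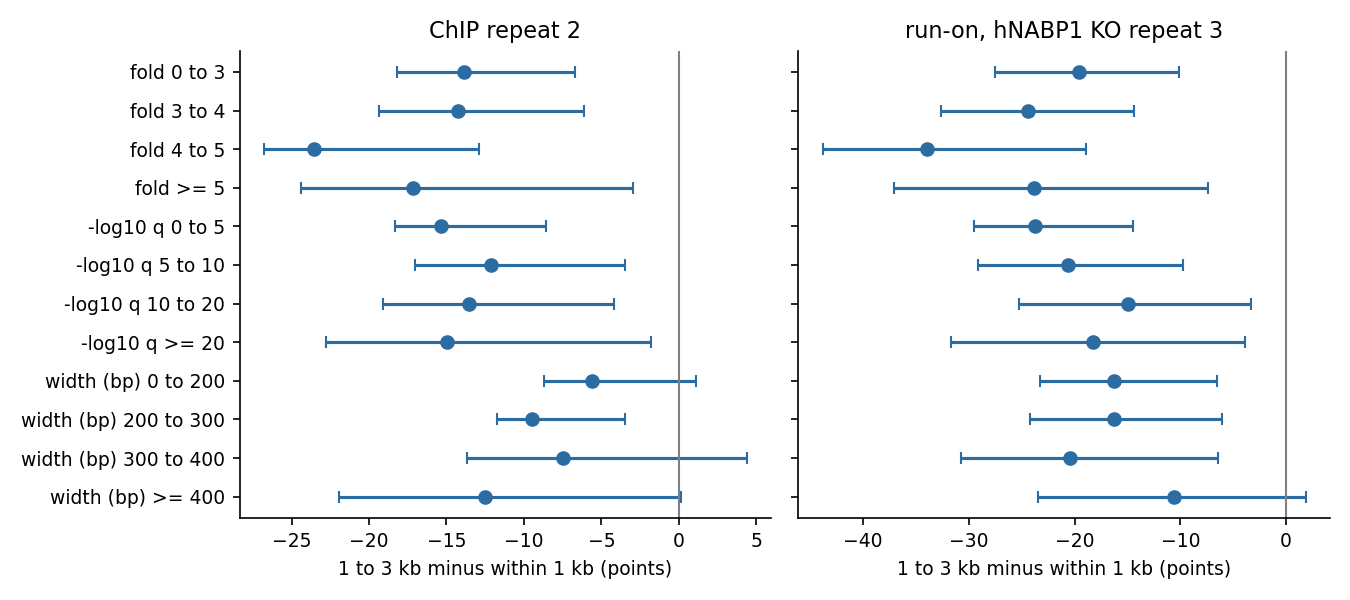
Difference in the share of overlapping peaks, 1 to 3 kb minus within 1 kb of a start, in percentage points (x axis) within ranges of fold, -log10 q and width (rows), for ChIP repeat 2 (left) and the run-on list labelled hNABP1 KO repeat 3 (right). Points are differences and bars Newcombe 95% intervals; all 24 points lie below 0, and in the left panel the intervals of 3 width ranges reach past 0, in the right panel that of the widest.

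Recurrence did not differ detectably by the side of the start or by a second peak at the same gene. Overlap with repeat 2 was 10.1% upstream (13 of 129) and 7.69% downstream (11 of 143; difference 2.39 points, -4.52 to 9.61). It was 5.74% where the gene also had a peak within 1 kb of a start (7 of 122) and 11.3% where it had none (17 of 150; difference 5.60 points, -1.39 to 12.3).

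A gene with such a peak nearer its start was common: 122 of the 272 (44.9%, 38.8 to 51.0) had one, at 111 genes. Such a gene was also assigned to 36.5% of intronic peaks (difference 8.35 points, 0.52 to 16.1). For distal intergenic peaks it was 25.3% (difference 19.6 points, 12.1 to 26.8). Seen from the 7974 genes with a peak within 1 kb, the 111 genes were 1.39%. The gap between the 2 peaks had a median of 1929 bp and was up to 3000 bp for 73 of the 122. For the other 49 it was larger, up to 293343 bp, since the 2 peaks can lie at different starts of a gene. The distal peak had the lower fold in 76 pairs and the higher in 45, with medians of 3.21 and 3.60. Its -log10 q was the lower in 87. The near peak overlapped repeat 2 in 36 of 122 (29.5%), and both did in 3.

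**Figure D3:**
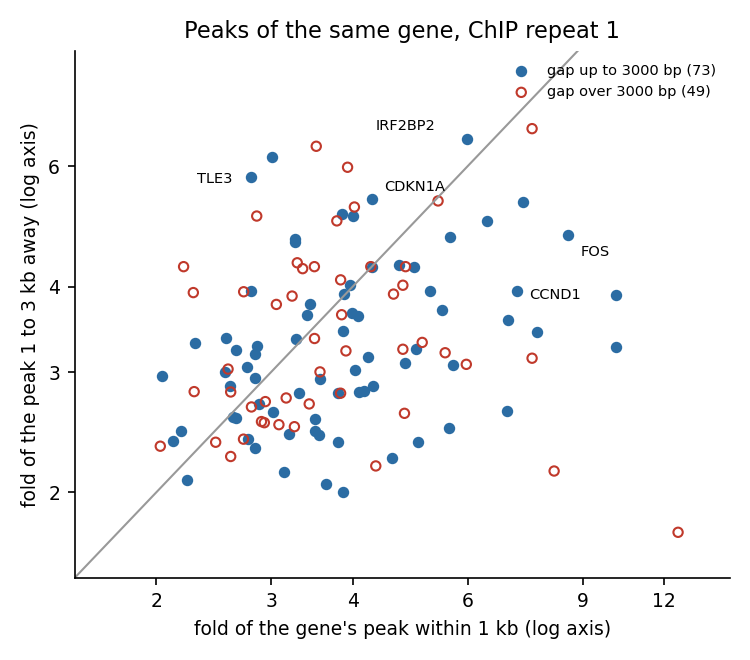
Fold of each of the 122 peaks (y axis, log scale) against the fold of the peak within 1 kb of a start of the same gene (x axis, log scale); filled points are up to 3000 bp apart and open points further, and the line marks equal folds. More points lie below the line (76) than above it (45), and FOS and CCND1 lie far below while CDKN1A and TLE3 lie above.

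Immediate early genes, the transcription factors and RNA regulators that cells switch on within minutes of a stimulus, had the most such peaks among the 10 gene lists used. Of their 17 genes with a peak within 1 kb, 6 (35.3%) also had one at 1 to 3 kb, against the 1.39% above. The list was chosen with earlier results of these data known, so this is a description. ZFP36, an mRNA decay factor that limits cytokine transcripts, had the highest fold of the 6 (5.102, 2754 bp upstream, chr19:39403910-39404093), above that of its near peak (3.85). FOS, a subunit of the AP-1 transcription factor, had 4.75 at 1279 bp upstream (chr14:75277019-75277547), below the 8.54 of its near peak. JUNB, another AP-1 subunit, had 4.30 at 1169 bp upstream (chr19:12789660-12790317) and 4.70 at the start. The other 3 were EGR1, JUN and FOSL2, at folds of 3.05, 3.07 and 3.64. For 5 of the 6 genes the peak was upstream, and the exception was JUN at 1128 bp downstream. None of the 6 peaks overlapped repeat 2.

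Other lists had few. CDKN1A, the p53-induced cyclin-dependent kinase inhibitor p21, had a peak 1417 bp downstream (chr6:36680188-36680692, fold 5.37) beside one of 4.28 at the start, 1 of 15 p53 targets with a near peak. CCND1, cyclin D1, had a fold of 3.94 at 1805 bp upstream and 7.13 at the start, 1 of 13 cell cycle genes. The cytoskeletal linker gene PLEC (fold 3.77, 1192 bp upstream) and the scaffold gene AHNAK (4.33, 1766 bp downstream) were 2 of 19 cytoskeleton and adhesion genes, and AMOTL2, a Hippo pathway regulator, 1 of 23 TGF-beta and Hippo genes (2.79, 2491 bp downstream). SOSS and Integrator, Pol II pausing and elongation, extracellular matrix, heat shock and unfolded protein response, and RNA processing genes had 0, from 8, 13, 15, 13 and 17 genes with a near peak.

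Several peaks at a gene were the exception, with 12 genes holding 2 and 2 genes 3. SSBP4, which encodes a single-stranded DNA binding protein of another family, had 3 upstream peaks, at 1088, 1768 and 2178 bp from their starts, with folds of 2.46, 2.56 and 3.36. AL158151.1 had 3 with folds of 2.01 to 3.92. BAIAP2, an actin regulator gene, had folds of 6.81 and 3.14, the ribosomal protein gene RPL36 4.694 and 4.65, the adaptor gene BCAR1 4.02 and 3.24, and P2RY11 5.15 and 2.86. Each of these genes except P2RY11 also had a peak within 1 kb of a start.

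The peaks also differed from those at starts in where they lay and in what they were assigned to. Chromosome 19 held 46 of 272 (16.9%, 12.7 to 21.9) against 6.22% within 1 kb, and chromosome 17 held 10.3% against 5.85%. The 2 chromosomes held 3.26% and 3.56% of intronic peaks, and 5.98% and 4.89% of distal intergenic peaks. Protein-coding genes took 182 (66.9%) against 91.5%, and 54 (19.9%) were assigned to transcripts without a RefSeq symbol against 3.80%. These 2 shares were 52.5% and 22.8% for intronic peaks and 42.1% and 30.4% for distal intergenic peaks. The kind of gene assigned, unlike the chromosome shares, is thus not particular to the peaks at 1 to 3 kb. The gap from peaks within 1 kb came with the peaks lacking a near peak: 48.0% of those were assigned to protein-coding genes and 31.3% to transcripts without a RefSeq symbol, against 90.2% and 5.74% where the gene had a near peak (protein-coding, difference -42.2 points, -51.0 to -31.9). By the grouping, a gene with a near peak belongs to the genes behind the 91.5% and 3.80%. The 90.2% and 5.74% were thus largely given in advance, and this difference is a description only. Upstream peaks were less often at protein-coding genes than downstream peaks (59.7% against 73.4%, difference -13.7 points, -24.6 to -2.53). Where the gene had no near peak the shares were 39.7% and 56.9% (difference -17.2 points, -32.0 to -1.22). Where it had one they were 90.2% and 90.1% (difference 0.06 points, -12.2 to 10.7).

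The promoter windows of the genes themselves were matched for 148 of the 256 genes. Their 239 windows had a median GC content of 65.3%, between the 67.3% of genes with a peak within 1 kb and the 58.7% of all windows. The ratio of observed to expected CpG was 0.73 against 0.84 and 0.58. GGGCGG was in 65.3% of them, in 70.1% of the windows of genes with a near peak and in 45.0% of all. CCGGAAG, the core letters of an ETS site, was in 4.18% against 16.0% and 10.3%. TGANTCA, the AP-1 letters, was in 6.28% against 4.79% and 7.71%. All letters were searched on both strands. Where the window lies away from the peak, this describes the gene and not the peak.

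Run-on peaks overlapped these regions less often than they overlapped peaks at starts, and nearly all of the overlap came from 1 library. The list labelled hNABP1 KO repeat 3 holds 9965 peaks, where the other 8 with NTP hold 94 to 518. It overlapped 74 of the 272 (27.2%, 22.0 to 32.9), against 48.1% of all annotated peaks and 50.7% of those within 1 kb. The difference from the latter was -23.5 points (-28.6 to -17.8). Distal intergenic peaks were overlapped more often than these regions (35.3%, difference -8.12 points, -15.2 to -0.82) and intronic peaks less often (14.8%, difference 12.4 points, 5.89 to 18.9). Over all run-on and DRIP lists the share was 29.4% (24.1 to 35.2), and without that library it fell to 3.68% (10 of 272, 1.78 to 6.66), against 6.99% of all annotated peaks and 7.49% of those within 1 kb in the other 8 run-on lists. With 1 such library in 1 genotype, the label and the library cannot be told apart.

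In that list upstream peaks were overlapped more often than downstream ones, 35.7% (46 of 129) against 19.6% (28 of 143), a difference of 16.1 points (5.46 to 26.36). At a -log10 q of 10 or more the shares were 54.4% and 25.8% (difference 28.6 points, 11.0 to 43.9), and below it 20.8% and 14.8% (6.02, -6.12 to 18.4). In genes with a near peak the shares were 29.4% and 11.3% (difference 18.1, 3.88 to 32.8). In genes without one they were 39.7% and 27.8% (difference 12.0, -3.19 to 26.3), an interval that included 0. The intervals overlap widely, and whether the side difference depends on a near peak or on -log10 q was not tested. Peaks at genes without a near peak were overlapped in 34.0% and the others in 18.9% (difference 15.1 points, 4.56 to 25.0).

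**Figure D4:**
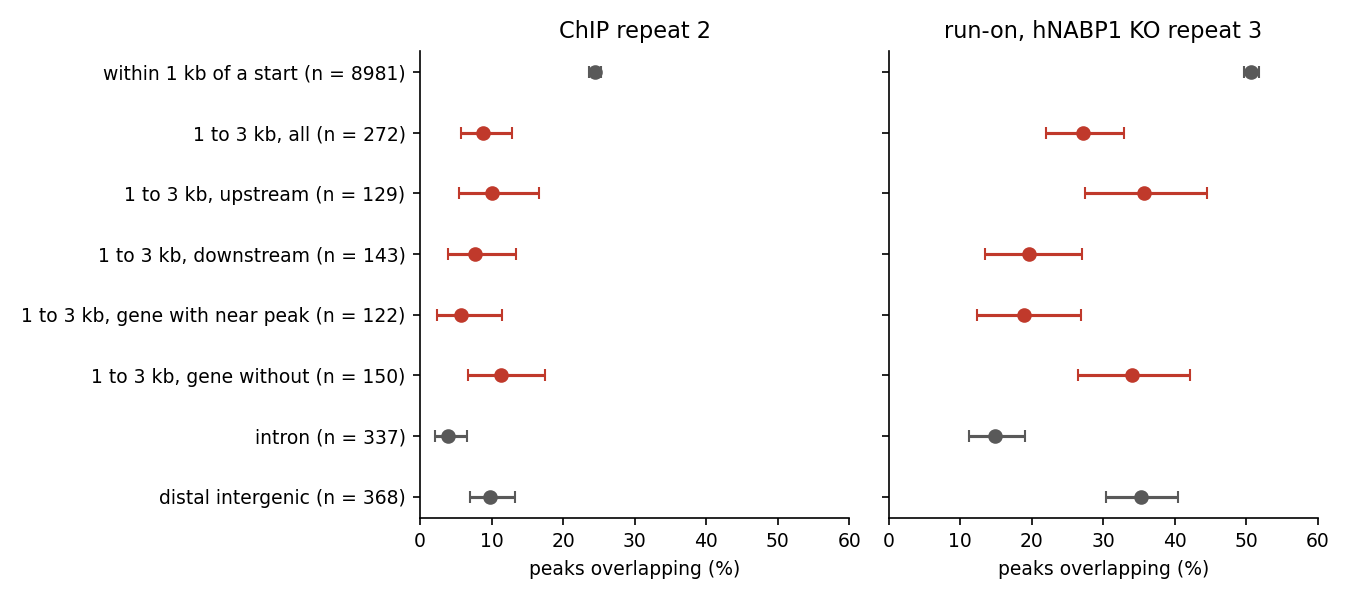
Percentage of peaks in each class (rows, with the number of peaks) that overlap a ChIP repeat 2 peak (left) or a peak of the run-on list labelled hNABP1 KO repeat 3 (right); points are shares and bars exact 95% intervals, with classes at 1 to 3 kb in red. All 1 to 3 kb classes lie left of the 24.5% and 50.7% of peaks within 1 kb, and in the right panel upstream peaks (35.7%) lie right of downstream ones (19.6%).

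Among the 74, the run-on fold had a median of 5.83 (range 3.42 to 54.2), and 13 were among the 24 that recurred in ChIP. How many of all annotated peaks were in both lists was not counted. IRF2BP2, ADAM8, JUNB, CDKN1A and TLE3, a Groucho-type corepressor gene (ChIP fold 5.79, 1400 bp upstream), were covered in this library, as were MAPK8IP1, KCNN1, FOS and FOSL2. GSG1 and the Notch coactivator gene MAML3 (ChIP fold 5.07, 1233 bp downstream) were covered in the list labelled hNABP1 KO repeat 1 instead, and RAD54L2 in repeat 2 of that label. RNA5-8SN3 was in 6 run-on lists of all 3 genotypes and was the only 1 of the 272 in a DRIP list, that of hNABP2 KO repeat 2. This share of 0.37% (1 of 272, 0.01 to 2.03) lies near the background, since 0.537% of all annotated peaks overlapped a DRIP list. Each of the other 3 DRIP lists overlapped 0 of 272 (exact 95% interval 0 to 1.35%). In no run-on or DRIP list were 192 of the 272. The share over all annotated peaks was not counted for any list together, but 48.1% of them overlapped hNABP1 KO repeat 3 alone.

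Run-on counts of the genes were too low to follow most of them. The count table held 191 of the 256 genes, 7 of them under an older symbol. Library totals were 5272 to 164357 counts, and in the libraries with NTP 35 to 180 of the 191 genes were seen at all. The median gene had 37 counts summed over all 18 libraries, and 13 was the median of the whole table. Markers of mesenchymal cells fixed for the line were detected in each genotype (10 of 10, summing to 1627 to 32437 CPM per library), against 173 to 2921 for epithelial, 0 to 213 for leukocyte and 0 to 355 for neural lists. These ranges overlap across libraries, but within each of the 9 libraries with NTP the mesenchymal sum was the highest. ESRP1 was at 0 in WT and EPCAM in libraries labelled hNABP1 KO. NABP2 was not lower under its knockout label (WT 4, 0 and 8 counts, hNABP2 KO 4, 3 and 15), and NABP1 was at 1, 0 and 19 counts in WT and at 0, 1 and 18 under the hNABP1 KO label. With counts this few and the kind of knockout not given, these values cannot check the labels. The genotypes below are given as labelled.

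The comparison of knockouts with WT asks whether run-on counts of the genes with NTP change. Counts without NTP were not subtracted. For the hNABP2 KO label edgeR called 0 of the 129 genes that passed its count filter (0%), and for the hNABP1 KO label 0 (0%). At an unadjusted p under 0.05 there were 0 and 1, and DESeq2 and voom also called 0 each. The filter left 5 genes with a peak 1 to 3 kb from a start. In WT repeats 1 to 3, PLEC had 36, 30 and 34 counts without NTP against 29, 41 and 107 with it. AHNAK had 32, 1 and 2 against 27, 1 and 16, and LONP1 2, 7 and 12 against 3, 7 and 40. MZF1 and DIPK1B had more counts with NTP in each WT repeat. Library totals were 9220, 5272 and 19247 against 11981, 5883 and 164357. Under the hNABP2 KO label AHNAK had 11 counts against 135 in repeat 1. The values below are thus not separated from signal present without NTP.

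PLEC, the cytoskeletal linker, had 2421, 6969 and 651 CPM (counts scaled to the library total) in WT repeats 1 to 3. Under the hNABP2 KO label it had 2247, 1368 and 656 CPM, and under the hNABP1 KO label 1443, 1192 and 459. The groups overlapped, though WT was the highest in repeats 1 and 2, at log2 fold changes of -0.68 (SE 0.749) and -1.02 (SE 0.757), with edgeR adjusted p of 0.990 and 1.00. LONP1, a mitochondrial protease, had 250, 1190 and 243 CPM in WT and 270, 1986 and 1731 in libraries labelled hNABP1 KO. By CPM it was higher there in each repeat, most in repeat 3, at a log2 fold change of 2.39 (SE 1.28, edgeR adjusted p = 1.00), and did not pass. In repeat 1 the WT library and the one labelled hNABP1 KO each held 3 LONP1 counts, so their CPM differed only by library total. In libraries labelled hNABP2 KO it had 255, 2887 and 423 CPM (0.65, SE 1.24).

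AHNAK had 2254, 170 and 97.3 CPM in WT, 6894, 152 and 181 under the hNABP2 KO label, and 2344, 0 and 60.6 under the other. Repeat 1 was the high library in every genotype, and the log2 fold changes were 1.57 (SE 1.57) and -0.17 (SE 1.58). MZF1, a zinc finger gene, lay at -0.10 and 0.22, and DIPK1B, listed as FAM69B, at -0.27 and -0.10. With repeats not paired, the ranges of WT and each label overlapped in each of the 5 genes. Compared by CPM within repeats, which pair the libraries, 4 comparisons went one way in 3 of 3 repeats. PLEC was lower and LONP1 and MZF1 higher under the hNABP1 KO label, and LONP1 was higher under the hNABP2 KO label. For LONP1 and MZF1 the direction in repeat 1 rests on very few counts. Each had 3 in WT and 3 under the hNABP1 KO label, and LONP1 had 5 under the hNABP2 KO label. With the repeats as blocks PLEC lay at a log2 fold change of -1.23 (SE 0.455) and LONP1 at 1.92 (SE 0.577) for the hNABP1 KO label, both at an edgeR adjusted p of 0.414. The edgeR adjusted p was 0.981 for MZF1 under that label and 0.977 for LONP1 under the hNABP2 KO label, and none of the 4 passed. With 10 or more counts as the filter 156 of the genes were among the 13447 tested and edgeR called 0 of them for either label, and with the repeats as blocks also 0 (smallest adjusted p = 0.169 for the hNABP1 KO label and 1 for the hNABP2 KO label). Without the block, the 156 had a median log2 fold change of 0.15 for the hNABP2 KO label, where all genes had 0.07, and of -0.05 for the hNABP1 KO label, where all had -0.03. Both sets of values use the same WT libraries.

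**Figure D5:**
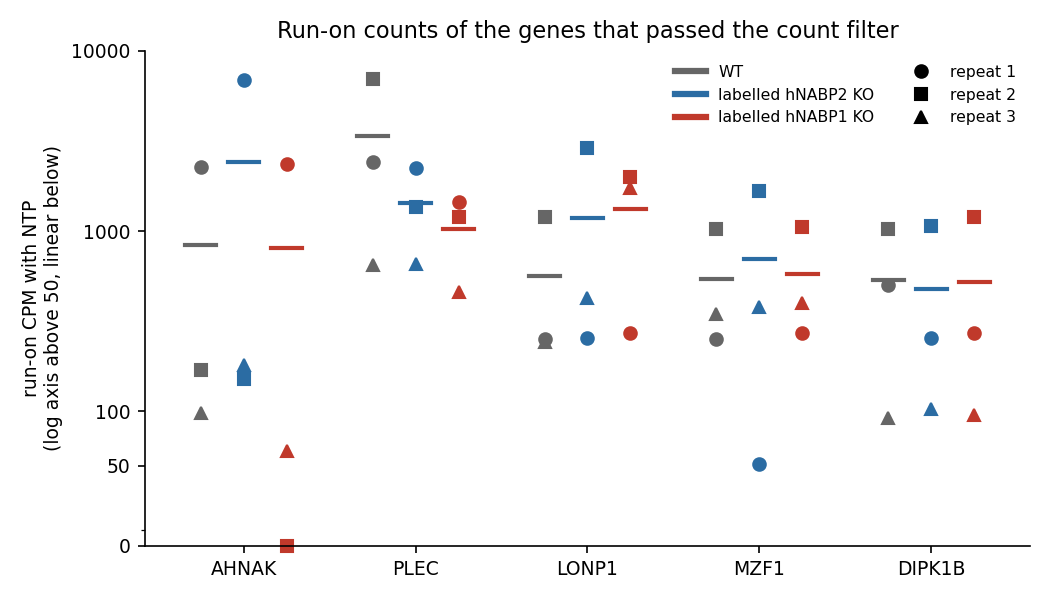
Run-on CPM with NTP (y axis, logarithmic above 50 and linear below) of the 5 genes with a peak 1 to 3 kb from a start that passed the count filter; symbols mark repeats 1 to 3, colours the labelled genotype and horizontal lines the mean of 3. In all 5 genes the ranges of the 3 genotypes overlap when repeats are not paired, and for AHNAK repeat 1 is the highest in each.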

How the data were processed

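The material was the run-on count table and 15 peak lists, of which 9 are run-on after NTP addition, 4 DRIP not treated with RNase H and 2 ChIP with the hNABP2 antibody; 6 IgG or RNase H libraries were not analysed here. Per the submitters' processing notes, cutadapt 1.18, Bowtie2 2.3.5, SAMtools and MACS2 2.2.1 were used with hg38, in no stated order. The sources used here do not give the controls of peak calling or the strand setting of counting. The deposited peak tables give a fold ratio, -log10 p and -log10 q values per peak, and a score that was not used. The deposited run-on table gives raw counts per gene symbol.

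Overlaps were counted at 1 bp or more. Shares carry exact Clopper-Pearson 95% intervals and differences Newcombe intervals (scipy 1.17.1). Genotypes were compared in 1 model of 9 libraries with edgeR 4.0.16 (R 4.3.3; filterByExpr, TMM, quasi-likelihood F test, Benjamini-Hochberg, threshold 0.05), with DESeq2 1.42.0 and limma 3.58.1 beside it. With group means removed, same-number repeats correlated at 0.380 to 0.802 (9 pairs) and different numbers at -0.646 to 0.135 (18 pairs), so the numbers pair the samples. Sequences are from the RefSeq promoter windows of GRCh38.p14, the assembly that hg38 stands for. No genome sequence was used, so peaks outside these windows have no sequence here.

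The regions, gene lists and tests were chosen with earlier results of these data known. Peaks are named by rule: on each side the 5 with the highest fold among those in repeat 2 and the 5 with the highest -log10 q at genes without a near peak, the 10 with the highest -log10 q in a run-on or DRIP list, those at the limits of the range, the genes tested in run-on, up to 6 genes with several peaks, and up to 3 peaks per list. EGR1, JUN, FOSL2 and the genes whose windows are printed were named after their values were seen.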

Additional observations from a re-analysis of the deposited data

How the results depend on the processing

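The share found again in repeat 2 was 8.82% and moved to 5.51% when 50% of the peak had to be covered, and also to 5.51% with repeat 2 peaks at a -log10 q of 5 or more; for peaks within 1 kb these gave 14.6% and 10.9%. A repeat 2 peak within 500 bp gave 9.93% against 27.4%, and repeat 1 peaks at a -log10 q of 10 or more 12.6% against 27.2%, so the share stayed lower at 1 to 3 kb in each. The share with a near peak was 29.8% when any gene's near peak within 3000 bp counted and 19.5% with near peaks from the repeat 2 annotation. The set itself was 48 peaks without replicate 1, from the annotation of repeat 2, and 119 at a -log10 q of 10 or more. The upstream share of 47.4% was 39.2% when the sign came from the nearest RefSeq start. Overlap with run-on or DRIP peaks was 3.68% without run-on hNABP1 KO replicate 3, an alternative chosen after seeing the data. The replicate block, which pairs the repeats, left 0 genes called for both labels (4 and 10 at an unadjusted p under 0.05). With 10 or more counts and the replicate block, chosen after seeing the data, edgeR called 16 of 13447 genes for hNABP1 KO, none of them a gene described here, and 0 without hNABP1 KO replicate 3. Leaving out 1 library at a time gave 0 to 0 calls. Run-on totals with NTP went down to 5883 counts, which limits what its tests can detect.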
